A study of Canis lupus familiaris with 15 samples.

Results

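Solute carriers are membrane proteins that move sugars, amino acids, ions, vitamins, metals and nucleotides across the plasma membrane and across the membranes of organelles. The gene set described here holds the genes of MDCK cells whose array annotation gives a symbol that starts with SLC and a digit, with SLC2A1 and SLC22A2 left out. Where a gene had several probe sets, the one brightest on average (mean log2 intensity over the 15 arrays) stood for it, and the gene counted as measured when that probe set reached a log2 intensity of 4 on 3 or more arrays. The array annotation listed 619 such probe sets for 324 genes, of which 187 genes were measured, among 10287 measured genes in all. The 187 fell into 45 SLC families. The rule for members used the name and the level, and it was set with earlier results of these data known. A gene could pass through high values in 1 group, and 7 of the 187 had a group mean under the filter level. Just inside the level filter, the mean log2 intensity was 3.82 for SLC2A6, 3.91 for SLC29A3 and 4.04 for SLC39A8. Just outside it, the mean was 3.93 for SLC22A31, 3.87 for SLC25A41 and 3.85 for SLC30A10. A further 137 annotated genes stayed under the filter and are given no differences.

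The RNA was from MDCK cells, an epithelial line established from dog kidney (Madin-Darby canine kidney), kept for 7 days on porous filters. In the HGF + PD group (n = 4) cells received hepatocyte growth factor (HGF) at 100 ng/ml for 24 h with a compound spelled PD09859 at 50 uM, and in the HGF + UO group (n = 3) the same HGF with 10 uM of a compound spelled UO126. The HGF group (n = 4) received HGF alone at the same dose and time, and the Control group (n = 4) medium only. The study asked which HGF-regulated genes depend on the MAPK pathway, and its title calls both compounds MAPK inhibitors. No arrays of an inhibitor without HGF were analysed here, no vehicle control is given in the sources used here, and the doses of the inhibitors differ, so their values stand side by side without a comparison. The line is a single cultured line, and the labels call the arrays of a group biological replicates without saying when the cultures were grown, so the p-values reflect only how far these arrays spread, which may be technical.

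HGF signals through MET, a receptor tyrosine kinase, and the MAPK cascade runs from RAF through MEK to ERK. In kidney tubules, solute carriers of the apical membrane reclaim sugars, amino acids, phosphate and organic acids from the filtrate, and carriers of the basolateral membrane pass them to the blood. Others supply every cell with amino acids, phosphate, iron and zinc, export lactate, or serve mitochondria, lysosomes, the endoplasmic reticulum and the Golgi apparatus. The arrays measure RNA, not transport, and in a bulk sample fewer cells of a type and less RNA per cell cannot be told apart.

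The values are GCRMA intensities on the log2 scale, and a difference of 1 is a doubling of intensity. Levels are not compared between genes, because probe sets differ in how brightly they hybridise. The array medians lay between 40.2 and 42.5 intensity units. Those of the HGF arrays (40.3 to 40.8) lay under those of the Control arrays (41.0 to 41.7; exact permutation p = 0.0286, 0.0857 adjusted). The median log2 level of the measured solute carriers was 7.62 ± 0.11 in HGF + PD, 7.67 ± 0.12 in HGF + UO, 7.61 ± 0.08 in HGF and 7.58 ± 0.06 in Control (SD over arrays). For beta-actin, the control probe set at the 3' end minus the one at the 5' end (log2) was 0.43 ± 0.10 in HGF + PD, 0.42 ± 0.05 in HGF + UO, -0.30 ± 0.04 in HGF and 0.43 ± 0.09 in Control. This 3' minus 5' difference, a check on RNA quality, was lower with HGF alone and not in the inhibitor groups, which also received HGF. The exact permutation p for HGF against Control was 0.0286, the smallest that 4 against 4 arrays allow (two-sided, 0.0857 adjusted over 15 array comparisons), and its part in the results was not tested. The same ratio of GAPDH was 0.18 ± 0.05 in HGF + PD, 0.25 ± 0.02 in HGF + UO, 0.17 ± 0.05 in HGF and 0.23 ± 0.05 in Control. For GAPDH the exact permutation p for HGF against Control was 0.114 (0.214 adjusted). Other actin control pairs of the array were not examined. All 9 kidney epithelium markers were measured, among them CDH1, CDH16, EPCAM and PAX8. Their summed intensity ran from 82974 to 104682 in HGF + PD, 89713 to 99050 in HGF + UO, 86763 to 104727 in HGF and 116779 to 127145 in Control. The sum is of linear intensities, so the brightest markers weigh most. Against Control, 8 of the 9 were lower with either inhibitor, beside 13.5% of all genes with PD and 10.3% with UO. With HGF alone CDH1 (0.60) and CLDN3 (0.34) were higher. CDH16 (-3.00), PAX8 (-1.57), EPCAM (-0.73) and KRT18 (-0.48) were lower, where all genes gave 28.0% higher and 27.7% lower. The fibroblast markers COL1A1, COL1A2, DCN and LUM, the endothelial TEK and VWF, and the leukocyte PTPRC, ITGAM and CD79A lay under the filter. Measured were the fibroblast COL3A1 (mean log2 5.89) and PDGFRB (5.68), and the endothelial CDH5 (8.16), PECAM1 (7.17) and KDR (4.31). The leukocyte CD3E (5.95) and CD14 (3.96) were measured too. With HGF alone PDGFRB (-0.26) and CD3E (-0.15) were lower than Control, and the others did not pass the threshold. The summed fibroblast markers (6 genes) lay between 134 and 155 intensity units in all groups, the endothelial ones (5 genes) between 417 and 518, and the leukocyte ones (5 genes) between 97.2 and 114.

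HGF moved the RNA of solute carriers in both directions and by amounts close to those of genes at large. Against Control, 49 of the 187 were higher (26.2%) and 52 lower (27.8%), and over all 10287 measured genes the shares were 28.0% higher and 27.7% lower. The median change of the solute carriers was -0.01, as was that of all genes. With PD added, 53 were higher (28.3%) and 45 lower (24.1%) than with HGF alone, beside 29.9% and 25.8% of all genes. With UO added, 50 were higher (26.7%) and 42 lower (22.5%) than with HGF alone, beside 26.2% and 26.3% of all genes. Changes of at least 1 on the log2 scale past the threshold numbered 14 higher and 15 lower of 187 for HGF against Control. They numbered 20 and 14 for HGF + PD against HGF, and 17 and 14 for HGF + UO against HGF. Of all genes, 13.7% changed by at least 1 in either direction for HGF against Control. The share was 13.2% for HGF + PD against HGF and 13.4% for HGF + UO against HGF. The solute carrier share was larger in each of these comparisons, a difference that was not tested. Median centring of the arrays gave 53 higher and 43 lower for HGF against Control and 46 and 59 for HGF + PD against HGF. For HGF + UO against HGF it gave 46 and 47. The split between directions in these comparisons thus depends on the scaling.

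Set against Control, the counts past the threshold were smaller with an inhibitor present than with HGF alone, a difference that was not tested. With HGF + PD 37 were higher (19.8%) and 21 lower (11.2%) than Control, where all genes gave 21.8% and 13.5%. With HGF + UO 24 were higher (12.8%) and 10 lower (5.35%), where all genes gave 13.8% and 10.3%. The gap between solute carriers and all genes was widest for those lower with HGF + UO than Control, and in the other 9 counts the shares lay nearer to each other. These differences between shares were not tested.

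**Figure D1:**
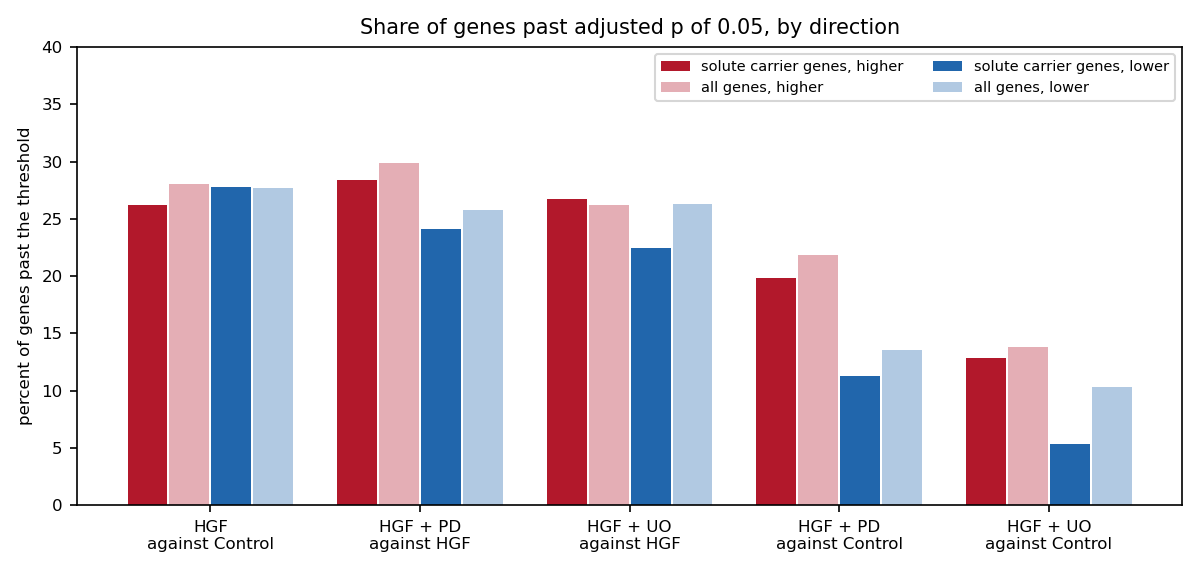
Percent of measured genes past an adjusted p of 0.05, higher or lower, for the 187 solute carrier genes (dark bars) and for all 10287 measured genes (pale bars) in 5 comparisons. The dark and pale bars lie near each other for HGF against Control (26.2% and 28.0% higher), and both are shorter for HGF + UO against Control (12.8% and 13.8% higher, 5.35% and 10.3% lower).

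By substrate class, set by the SLC family number, the amino acid carriers had the most members raised by HGF for their number, with 11 of 26 higher and 7 lower. Of the nucleoside and nucleotide sugar carriers 4 of 24 were higher and 10 lower. Of the fatty acid, choline and lipid carriers 0 of 7 were higher and 3 lower. The other classes were mixed, with 4 higher and 3 lower of 14 for sugars and inositol, 4 and 5 of 14 for monocarboxylates and vitamins, 2 and 2 of 14 for phosphate, sulphate and dicarboxylates, 4 and 2 of 17 for sodium, chloride and acid-base carriers, 2 and 3 of 12 for organic ions, 7 and 6 of 21 for metals, and 11 and 9 of 33 for mitochondrial carriers. Beside these counts stand the shares of all genes, 28.0% higher and 27.7% lower, and the metal and mitochondrial carriers lay near them. The class medians for HGF against Control lay between -0.18 and 0.06. No class was tested as a class.

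**Figure D2:**
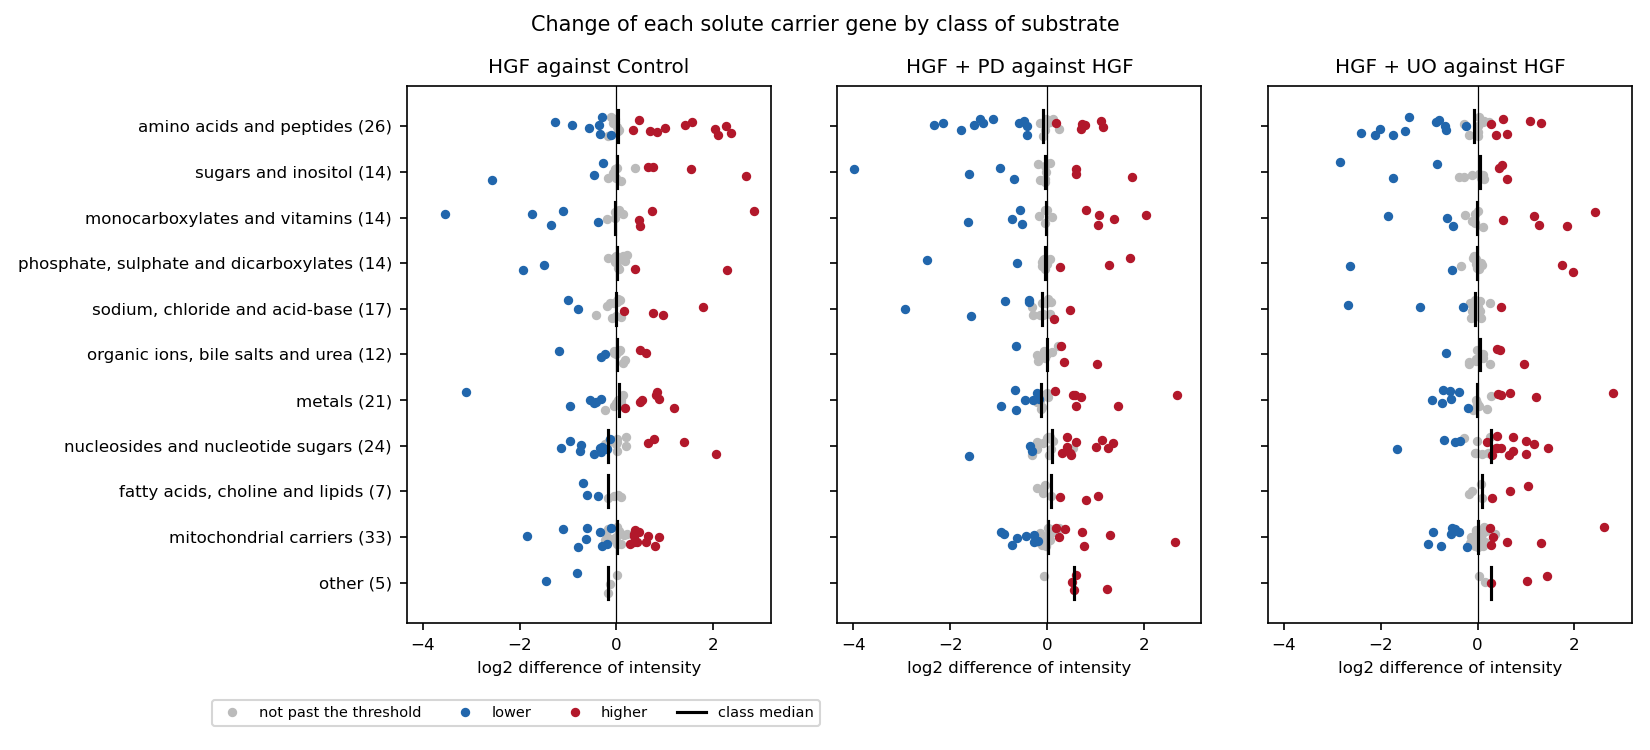
Log2 difference of each solute carrier gene by substrate class (number measured in brackets) for HGF against Control, HGF + PD against HGF and HGF + UO against HGF, with genes past the threshold in red (higher) or blue (lower), the others in grey and the class median as a black bar. The class medians stay near 0 while single genes reach -3.54 (SLC46A3) and 2.85 (SLC16A3) with HGF. The middle and right panels share the HGF arrays with the left one.

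Amino acid carriers moved in both directions with HGF, and several carriers of neutral amino acids were among those that rose. SLC38A2, a sodium-coupled neutral amino acid transporter of the plasma membrane, had log2 intensities of 7.17, 7.25, 7.34 and 7.29 on the HGF + PD arrays, 6.79, 7.26 and 6.98 on the HGF + UO arrays, 8.91, 9.08, 8.90 and 9.22 on the HGF arrays and 7.09, 7.13, 6.54 and 7.26 on the Control arrays. The HGF arrays lay above all others, and both inhibitor groups overlapped Control. SLC38A2 rose by 2.02 ± 0.14 (SE) with HGF, or 4.06-fold (adjusted p = 1.53e-08), and fell by 1.77 ± 0.14 with PD and by 2.02 ± 0.15 with UO against HGF alone. SLC1A4, the neutral amino acid exchanger ASCT1, read 8.50, 8.60, 8.50 and 8.84 on the HGF + PD arrays, 8.30, 8.14 and 8.13 on the HGF + UO arrays, 9.92, 9.91, 9.91 and 9.96 on the HGF arrays and 7.92, 7.72, 7.69 and 8.03 on the Control arrays. Here all 4 groups were separate, with HGF highest and Control lowest. SLC1A4 rose by 2.09 ± 0.09 with HGF (adjusted p = 7.79e-11), and it kept differences from Control of 0.77 ± 0.09 with PD (adjusted p = 1.20e-05) and 0.35 ± 0.09 with UO (adjusted p = 0.0161). A second SLC1A4 probe set gave 1.58 for HGF against Control, and its differences from Control of 0.37 with PD and 0.32 with UO did not pass (adjusted p = 0.0539 and 0.164). The UO difference of the first probe set did not pass without HGF + UO replicate 1 (0.29, adjusted p = 0.0787).

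Several related carriers were also highest with HGF. SLC38A1, of the same family as SLC38A2, averaged 10.62 ± 0.06 in HGF + PD, 10.72 ± 0.07 in HGF + UO, 12.13 ± 0.11 in HGF and 10.58 ± 0.08 in Control and rose by 1.55 ± 0.06 with HGF (adjusted p = 2.83e-11). SLC7A5, the light chain of the leucine exchanger LAT1, averaged 6.72 ± 0.22 in HGF + PD, 6.59 ± 0.06 in HGF + UO, 8.09 ± 0.22 in HGF and 6.68 ± 0.14 in Control and rose by 1.42 ± 0.12 with HGF (adjusted p = 1.41e-07). Its heavy chain partner SLC3A2 lay under the filter on its annotated probe set. SLC1A5, the glutamine exchanger ASCT2, rose by 1.00 ± 0.18 with HGF and fell by 1.10 ± 0.18 with PD and 0.80 ± 0.20 with UO against HGF. SLC36A4, an amino acid transporter, averaged 4.88 ± 0.17 in HGF + PD, 5.11 ± 0.65 in HGF + UO, 7.22 ± 0.17 in HGF and 4.86 ± 0.06 in Control, a change of 2.36 ± 0.20 with HGF (adjusted p = 1.12e-07). SLC38A5, another neutral amino acid transporter, lay near the filter level outside HGF, at 4.07 ± 0.17 in HGF + PD, 3.81 ± 0.17 in HGF + UO, 6.21 ± 0.13 in HGF and 3.96 ± 0.18 in Control, so the size of its change of 2.25 ± 0.11 depends on the background correction. For SLC38A1, SLC7A5, SLC36A4 and SLC38A5 every HGF array lay above every array of the other 3 groups. With PD the changes of these 4 against HGF ran from -2.34 for SLC36A4 to -1.38 for SLC7A5, and with UO from -2.40 for SLC38A5 to -1.41 for SLC38A1, all past the threshold.

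Not all amino acid carriers went up. SLC43A2, which carries branched-chain amino acids and phenylalanine, averaged 7.76 ± 0.22 in HGF + PD, 7.91 ± 0.13 in HGF + UO, 6.61 ± 0.34 in HGF and 7.89 ± 0.09 in Control. It fell by 1.28 ± 0.15 with HGF (adjusted p = 3.56e-06), and 2 dimmer SLC43A2 probe sets gave -0.44 and -0.13. SLC6A6, the taurine transporter, fell by 0.30 ± 0.07 with HGF (adjusted p = 0.00146) and was higher than Control with PD (0.41 ± 0.07) while with UO it read -0.02 ± 0.07 (adjusted p = 0.928). On a second SLC6A6 probe set the PD difference was 0.10 (adjusted p = 0.486). Of the 6 measured SLC38 genes 3 were higher and 3 lower with HGF, beside 28.0% and 27.7% of all genes. The 3 lower ones, chosen here after their values were seen, were SLC38A6 (-0.56), SLC38A10 (-0.33) and SLC38A9 (-0.91 ± 0.09), the lysosomal arginine sensor of the mTORC1 pathway. In the whole class, 6 of 26 were higher and 11 lower with either inhibitor against HGF. All genes gave 29.9% higher and 25.8% lower with PD, and 26.2% and 26.3% with UO. Of ATF4, a transcription factor known to drive several amino acid carriers, the log2 level was 13.51 ± 0.07 in HGF + PD, 13.46 ± 0.06 in HGF + UO, 14.36 ± 0.03 in HGF and 13.51 ± 0.02 in Control, a change of 0.85 ± 0.04 with HGF. The part of ATF4 in the values of these carriers was not tested.

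**Figure D3:**
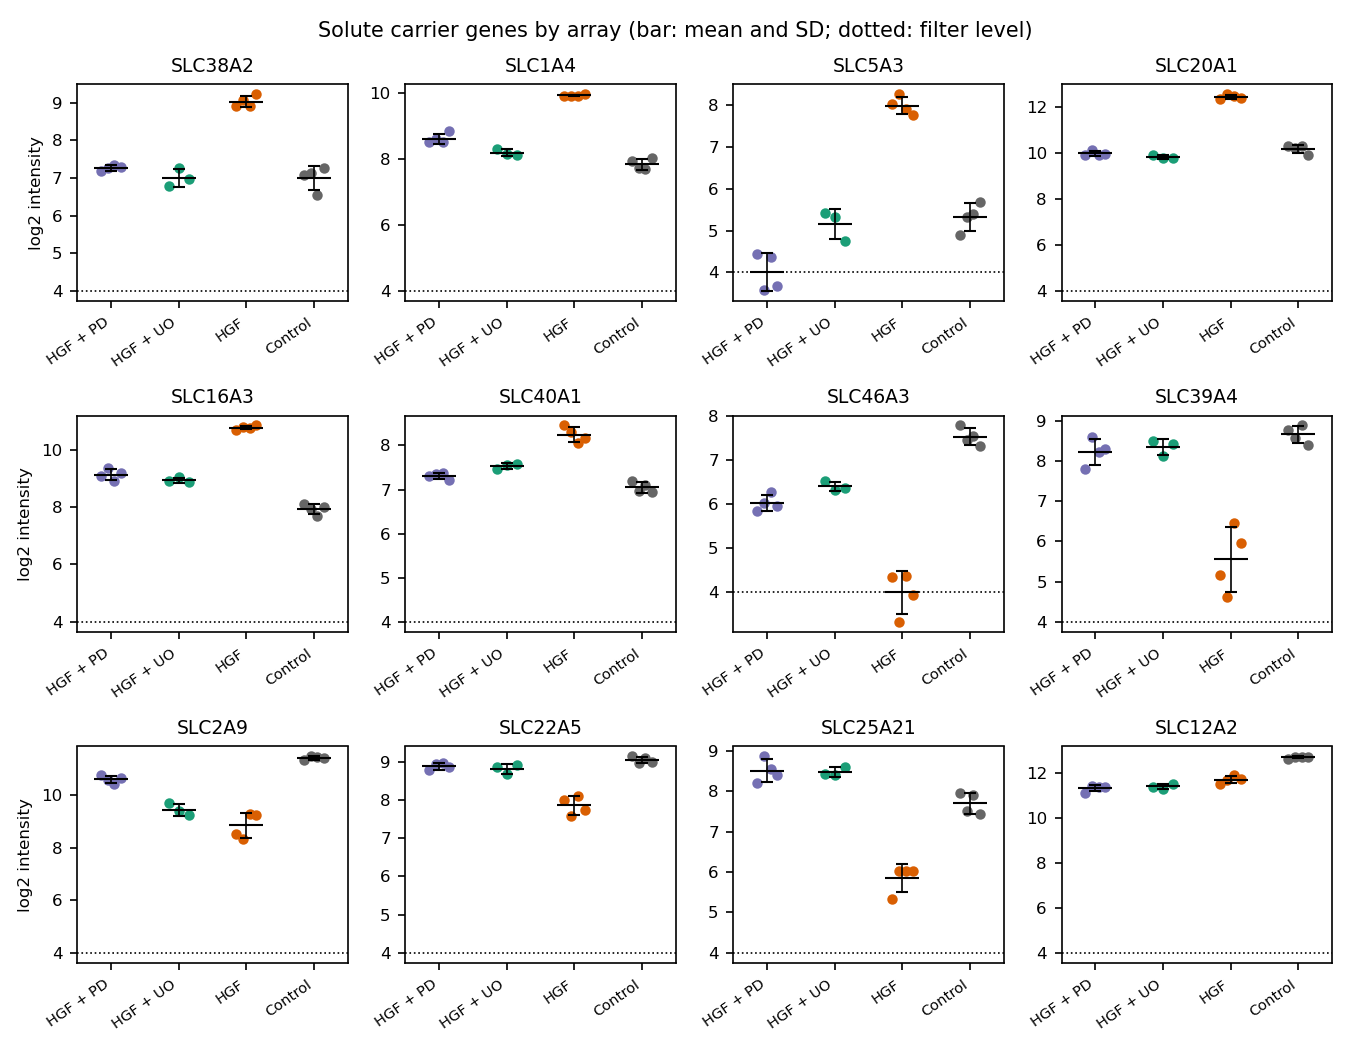
Log2 intensity of 12 solute carrier genes on each array (points) with the group mean and SD (bars) in HGF + PD, HGF + UO, HGF and Control; the dotted line is the filter level of 4. SLC38A2, SLC1A4, SLC5A3, SLC20A1, SLC16A3 and SLC40A1 are highest on the HGF arrays, SLC46A3, SLC39A4, SLC22A5 and SLC25A21 are lowest there, SLC2A9 on HGF overlaps HGF + UO, and SLC12A2 is low in all 3 groups that received HGF.

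Among sugar and polyol carriers, the largest rise was that of SLC5A3, the sodium/myo-inositol transporter, which brings in an osmolyte in kidney cells. Its log2 intensities were 4.43, 3.57, 4.38 and 3.67 on the HGF + PD arrays, 5.43, 5.31 and 4.76 on the HGF + UO arrays, 8.05, 8.27, 7.91 and 7.77 on the HGF arrays and 4.90, 5.31, 5.40 and 5.69 on the Control arrays. The HGF arrays stood above all others, HGF + UO overlapped Control, and HGF + PD lay under Control without overlap. SLC5A3 rose by 2.67 ± 0.22 with HGF, or 6.37-fold (adjusted p = 1.12e-07). It changed by -3.99 ± 0.22 with PD and by -2.83 ± 0.24 with UO against HGF, and by -1.32 ± 0.22 with PD against Control (adjusted p = 0.000386). The HGF + PD mean of 4.01 sits at the filter level, so the size of both PD differences depends on the background correction. NFAT5, known to drive osmolyte transporter genes, differed by 0.05 ± 0.21 for HGF against Control (adjusted p = 0.861). Its level was lower than with HGF by 0.77 ± 0.21 with PD (adjusted p = 0.00592) and by 0.57 ± 0.23 with UO (adjusted p = 0.0480), and it read -0.72 ± 0.21 with PD (adjusted p = 0.0162) and -0.52 ± 0.23 with UO (adjusted p = 0.129) against Control. Its part in the SLC5A3 values was not tested.

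The urate transporter SLC2A9 went the other way. It read 10.76, 10.57, 10.41 and 10.65 on the HGF + PD arrays, 9.71, 9.39 and 9.25 on the HGF + UO arrays, 8.54, 8.34, 9.30 and 9.23 on the HGF arrays and 11.33, 11.47, 11.44 and 11.41 on the Control arrays. The UO arrays overlapped HGF alone, while the PD arrays lay between HGF and Control without overlap. SLC2A9 fell by 2.56 ± 0.18 with HGF, or 5.92-fold (adjusted p = 2.11e-08), and the inhibitor groups were higher than HGF by 1.75 ± 0.18 with PD and by 0.60 ± 0.20 with UO (adjusted p = 0.0193). Against Control the remaining differences were -0.82 ± 0.18 with PD and -1.96 ± 0.20 with UO. A second SLC2A9 probe set gave -1.78 for HGF against Control. The UO difference from HGF was lost on that probe set (0.39, adjusted p = 0.0680), and without HGF replicate 1 (0.50, adjusted p = 0.0575), HGF replicate 2 (0.43, adjusted p = 0.0526) or HGF + UO replicate 1 (0.47, adjusted p = 0.0952). SLC5A6, the sodium-dependent multivitamin carrier for biotin and pantothenate, averaged 12.08 ± 0.03 in HGF + PD, 12.23 ± 0.06 in HGF + UO, 13.05 ± 0.06 in HGF and 12.30 ± 0.05 in Control and rose by 0.75 ± 0.04 with HGF (adjusted p = 1.09e-09). SLC45A4 rose by 1.54 ± 0.19 and fell by 1.61 ± 0.19 with PD and 1.73 ± 0.20 with UO. SLC5A2, the renal glucose transporter SGLT2, differed by -0.03 ± 0.07 (adjusted p = 0.785) and SLC2A3, a glucose transporter, by 0.10 ± 0.06 (adjusted p = 0.163).

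The largest rise of any measured solute carrier was that of SLC16A3, the monocarboxylate transporter MCT4, which exports lactate from glycolytic cells. It read 9.08, 9.36, 8.90 and 9.19 on the HGF + PD arrays, 8.91, 9.04 and 8.86 on the HGF + UO arrays, 10.70, 10.78, 10.76 and 10.85 on the HGF arrays and 8.10, 7.92, 7.70 and 7.99 on the Control arrays. The 3 levels were separate, with HGF on top, both inhibitor groups in between and Control at the bottom, and only the inhibitor groups overlapped each other. SLC16A3 rose by 2.85 ± 0.10 with HGF, or 7.19-fold (adjusted p = 9.05e-12). It was lower than HGF by 1.64 ± 0.10 with PD and 1.84 ± 0.10 with UO, and still higher than Control by 1.21 ± 0.10 with PD (adjusted p = 3.91e-07) and 1.01 ± 0.10 with UO (adjusted p = 8.71e-06). SLC16A1, the lactate and pyruvate carrier MCT1, rose by a smaller 0.73 ± 0.09 with HGF (adjusted p = 6.48e-06) and lay 0.01 ± 0.09 from Control with PD (adjusted p = 0.956).

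SLC16A12, which transports creatine, averaged 9.42 ± 0.21 in HGF + PD, 9.20 ± 0.16 in HGF + UO, 8.05 ± 0.27 in HGF and 9.79 ± 0.11 in Control and fell by 1.75 ± 0.13 with HGF (adjusted p = 3.31e-08). The deepest fall of the whole set was that of SLC46A3, a lysosomal carrier. Its log2 intensities were 5.83, 6.02, 6.27 and 5.94 on the HGF + PD arrays, 6.51, 6.31 and 6.35 on the HGF + UO arrays, 4.34, 3.31, 4.35 and 3.92 on the HGF arrays and 7.78, 7.45, 7.54 and 7.32 on the Control arrays. All 4 groups were separate, in the order Control, HGF + UO, HGF + PD and HGF from high to low. SLC46A3 changed by -3.54 ± 0.19 with HGF (adjusted p = 1.02e-09), to an HGF mean of 3.98 at the filter level, so the size depends on the background correction. It was higher than HGF by 2.04 ± 0.19 with PD and 2.41 ± 0.21 with UO, and lower than Control by 1.51 ± 0.19 with PD and 1.13 ± 0.21 with UO, all past the threshold.

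Vitamin carriers moved in both directions with HGF. Beside SLC5A6, the thiamine transporter SLC19A2 rose by 0.49 ± 0.11 (adjusted p = 0.00148, and 0.19 with adjusted p = 0.166 on a second probe set) and the vitamin C transporter SLC23A2 by 0.47 ± 0.08 (adjusted p = 0.000164), both named after their values were seen. The carriers that follow fell. SLC46A1, the proton-coupled folate transporter, averaged 7.87 ± 0.23 in HGF + PD, 8.08 ± 0.20 in HGF + UO, 6.82 ± 0.17 in HGF and 8.16 ± 0.27 in Control and fell by 1.34 ± 0.15 (adjusted p = 1.86e-06). SLC23A1, a sodium-dependent vitamin C transporter of absorptive epithelia, was dim at 5.22 ± 0.29 in HGF + PD, 6.00 ± 0.32 in HGF + UO, 4.15 ± 0.62 in HGF and 5.26 ± 0.09 in Control and changed by -1.11 ± 0.25 (adjusted p = 0.00141), a size that depends on the background correction. SLC52A2, a riboflavin transporter, fell by 0.38 ± 0.07 and was higher than Control with PD on its brightest probe set (0.43 ± 0.07) but not past the threshold on another (0.05, adjusted p = 0.710). Of the class, 5 of 14 were higher and 4 lower with PD against HGF, and 5 higher and 3 lower with UO against HGF. The shares of all genes were 29.9% and 25.8% with PD, and 26.2% and 26.3% with UO.

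Phosphate carriers of the plasma membrane differed from each other. SLC20A1, the widely expressed sodium-phosphate cotransporter PiT-1, read 9.92, 10.14, 9.92 and 9.98 on the HGF + PD arrays, 9.90, 9.78 and 9.80 on the HGF + UO arrays, 12.36, 12.55, 12.50 and 12.41 on the HGF arrays and 10.32, 10.22, 10.28 and 9.92 on the Control arrays. The HGF arrays were far above all others, HGF + PD overlapped Control and HGF + UO lay slightly under it. SLC20A1 rose by 2.27 ± 0.08 with HGF, or 4.82-fold (adjusted p = 1.96e-11), and a second probe set gave 2.51. With UO it was -0.36 ± 0.09 from Control (adjusted p = 0.00985) and with PD -0.20 ± 0.08 (adjusted p = 0.0824), which passed without Control replicate 4 (-0.29, adjusted p = 0.00480) or HGF + PD replicate 2 (-0.25, adjusted p = 0.0374). Its paralogue SLC20A2 differed by -0.17 ± 0.11 with HGF (adjusted p = 0.216), and SLC34A1, the proximal tubule phosphate carrier NaPi-IIa, by -0.06 ± 0.06 (adjusted p = 0.437).

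A pair of carriers of internal membranes in the same class fell. SLC37A4, the glucose-6-phosphate carrier of the endoplasmic reticulum, averaged 9.65 ± 0.18 in HGF + PD, 10.10 ± 0.29 in HGF + UO, 8.36 ± 0.22 in HGF and 10.29 ± 0.08 in Control. It fell by 1.92 ± 0.13 with HGF, or 3.8-fold (adjusted p = 1.11e-08), and remained lower than Control with PD (-0.64 ± 0.13) but not past the threshold with UO (-0.19 ± 0.14, adjusted p = 0.404). SLC17A5, the sialic acid exporter of lysosomes known as sialin, averaged 10.81 ± 0.08 in HGF + PD, 11.06 ± 0.03 in HGF + UO, 9.09 ± 0.13 in HGF and 10.59 ± 0.08 in Control. It fell by 1.50 ± 0.07 with HGF (adjusted p = 1.27e-10), and its groups were all separate, with both inhibitor groups above Control, by 0.22 ± 0.07 with PD and 0.47 ± 0.07 with UO. The PD difference from Control did not pass without Control replicate 2 (0.19, adjusted p = 0.0643), Control replicate 3 (0.21, adjusted p = 0.0515) or HGF + PD replicate 3 (0.19, adjusted p = 0.0620), nor after quantile normalization (0.14, adjusted p = 0.181) or median centring (0.18, adjusted p = 0.0729), nor on a second probe set (0.20, adjusted p = 0.0915).

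Ion carriers that set cell volume and pH gave several different patterns. SLC12A2, the basolateral sodium-potassium-chloride cotransporter NKCC1, read 11.10, 11.43, 11.35 and 11.39 on the HGF + PD arrays, 11.38, 11.30 and 11.49 on the HGF + UO arrays, 11.50, 11.67, 11.89 and 11.70 on the HGF arrays and 12.63, 12.71, 12.72 and 12.71 on the Control arrays. Control stood above all 3 groups that received HGF, and the inhibitor groups lay under HGF alone without overlap. SLC12A2 fell by 1.00 ± 0.08 with HGF, or 2-fold (adjusted p = 9.44e-08), and was lower still than HGF by 0.37 ± 0.08 with PD (adjusted p = 0.00132) and 0.30 ± 0.09 with UO (adjusted p = 0.0110). Other SLC12A2 probe sets gave -1.09 and -1.22 for HGF against Control, -0.49 and -0.47 with PD, and -0.14 and -0.07 with UO. With UO neither of these passed the threshold (adjusted p = 0.217 and 0.726), nor did the chosen probe set without HGF + UO replicate 2 (-0.25, adjusted p = 0.0549). SLC12A4, the potassium-chloride cotransporter KCC1, rose by 1.78 ± 0.15 on its brightest probe set (adjusted p = 1.58e-07), while another gave 0.51 and the dimmest gave -0.02, not past the threshold, so its size depends on the probe set. SLC12A7, a related potassium-chloride cotransporter, differed by 0.04 ± 0.06 (adjusted p = 0.604), and SLC12A3, the thiazide-sensitive cotransporter of the distal tubule, by -0.19 ± 0.17 (adjusted p = 0.382).

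SLC4A7, a sodium bicarbonate cotransporter, averaged 9.75 ± 0.13 in HGF + PD, 10.48 ± 0.12 in HGF + UO, 10.63 ± 0.14 in HGF and 9.88 ± 0.24 in Control. It rose by 0.75 ± 0.11 with HGF (adjusted p = 4.21e-05) and fell by 0.88 ± 0.11 with PD (adjusted p = 9.15e-06), while with UO it differed from HGF by -0.15 ± 0.12 (adjusted p = 0.324, 95% interval -0.41 to 0.11). With UO the SLC4A7 level was 0.60 ± 0.12 above Control (adjusted p = 0.00230). SLC4A11 averaged 4.36 ± 0.63 in HGF + PD, 4.61 ± 0.76 in HGF + UO, 7.29 ± 0.09 in HGF and 6.32 ± 0.25 in Control on its brighter probe set, with changes of 0.96 ± 0.31 for HGF against Control, -2.93 ± 0.31 with PD and -2.68 ± 0.33 with UO against HGF, each past the threshold. The other SLC4A11 probe set gave 0.07, -0.12 and -0.14, none past the threshold, so the change of this gene rests on 1 probe set. Its inhibitor arrays lie near the filter level, so the sizes depend on the background correction. SLC4A2, the chloride-bicarbonate exchanger AE2, differed by 0.01 ± 0.10 with HGF (adjusted p = 0.963) and was lower with PD (-0.37 ± 0.10, adjusted p = 0.00612, and -0.26 with adjusted p = 0.0799 on a second probe set), with arrays that overlapped between all groups. In this class 2 of 17 were higher and 5 lower with PD against HGF, beside 29.9% and 25.8% of all genes. With UO against HGF 1 was higher and 3 lower, beside 26.2% and 26.3% of all genes.

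Of the organic ion carriers, SLC22A5, the sodium-dependent carnitine transporter OCTN2, read 8.78, 8.94, 8.97 and 8.86 on the HGF + PD arrays, 8.87, 8.67 and 8.92 on the HGF + UO arrays, 8.0, 7.60, 8.12 and 7.73 on the HGF arrays and 9.15, 8.96, 9.10 and 8.99 on the Control arrays. The HGF arrays lay under all others. SLC22A5 fell by 1.19 ± 0.10 with HGF (adjusted p = 1.50e-07) and by 2.54 on a dimmer probe set, and it was higher than HGF by 1.02 ± 0.10 with PD and 0.96 ± 0.11 with UO. SLC22A23 rose by 0.62 ± 0.14 with HGF (adjusted p = 0.00154) and SLC22A18 fell by 0.32 ± 0.10 (adjusted p = 0.0119, and -0.27 with adjusted p = 0.0548 after median centring). The renal organic anion transporters were at dim levels that did not move past the threshold, with 0.05 ± 0.06 for SLC22A6, or OAT1 (adjusted p = 0.509), and -0.01 ± 0.03 for SLC22A8, or OAT3 (adjusted p = 0.795).

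Metal carriers held one of the deepest falls. SLC39A4, which takes up zinc at the apical membrane of the gut, read 7.80, 8.59, 8.23 and 8.29 on the HGF + PD arrays, 8.48, 8.13 and 8.43 on the HGF + UO arrays, 5.18, 4.62, 6.45 and 5.97 on the HGF arrays and 8.77, 8.57, 8.88 and 8.40 on the Control arrays. The HGF arrays lay under all others and were spread over a wider range, and both inhibitor groups overlapped Control. SLC39A4 fell by 3.10 ± 0.31 with HGF, or 8.59-fold (adjusted p = 6.49e-07), and was higher than HGF by 2.67 ± 0.31 with PD and 2.79 ± 0.33 with UO. Of the 11 measured members of the SLC39 family of zinc importers 0 were higher and 5 lower with HGF (SLC39A4, SLC39A6, SLC39A7, SLC39A9 and SLC39A11). Against HGF, 6 were higher and 2 lower with PD, and 5 and 1 with UO. All genes gave 28.0% higher and 27.7% lower with HGF, 29.9% and 25.8% with PD, and 26.2% and 26.3% with UO. The family was not tested as a set. SLC39A11 averaged 10.34 ± 0.10 in HGF + PD, 10.10 ± 0.09 in HGF + UO, 8.88 ± 0.15 in HGF and 9.85 ± 0.12 in Control, a change of -0.97 ± 0.08 with HGF (adjusted p = 1.36e-07). SLC39A14, which also carries iron, differed by 0.06 ± 0.06 (adjusted p = 0.428).

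SLC40A1, the iron exporter ferroportin, read 7.30, 7.35, 7.36 and 7.21 on the HGF + PD arrays, 7.46, 7.56 and 7.59 on the HGF + UO arrays, 8.46, 8.30, 8.06 and 8.17 on the HGF arrays and 7.19, 6.96, 7.11 and 6.94 on the Control arrays. All 4 groups were separate, with HGF highest, then HGF + UO, HGF + PD and Control. SLC40A1 rose by 1.19 ± 0.08 with HGF (adjusted p = 1.90e-08) and read above Control with PD (0.26 ± 0.08, adjusted p = 0.0303) and with UO (0.49 ± 0.09, adjusted p = 0.00137). A second SLC40A1 probe set gave 0.97 for HGF against Control, but -0.05 (adjusted p = 0.83) with PD and 0.30 (adjusted p = 0.195) with UO against Control. The PD call was also lost without any of 5 single arrays, which were Control replicates 2 and 4 and HGF + PD replicates 1, 2 and 3 (0.22 to 0.26, adjusted p from 0.0557 to 0.0860). SLC11A2, the iron importer DMT1, differed by -0.04 ± 0.08 (adjusted p = 0.686). Of the 5 measured zinc transporters of the SLC30 family, 3 were higher and 1 lower (SLC30A7, by its brighter probe set only) with HGF. The shares of all genes were 28.0% and 27.7%. The changes were 0.82 ± 0.10 for SLC30A9 (adjusted p = 8.96e-06) and 0.52 ± 0.09 for SLC30A6 (adjusted p = 0.000185), both named after their values were seen. SLC30A5, which loads zinc into the secretory pathway, gave 0.17 ± 0.06 (adjusted p = 0.0207), a call that was lost after quantile normalization and without Control replicate 2 or 4 or HGF replicate 3 or 4 (0.14 to 0.16, adjusted p from 0.0517 to 0.0700). SLC30A7 was the gene whose probe sets were called in opposite directions, at -0.32 on the brighter and 0.90 on the other, so no direction is given for it.

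The SLC35 family includes carriers that bring nucleotide sugars into the Golgi apparatus and endoplasmic reticulum, and its members are grouped here by name, not by a known substrate. Of its 20 measured genes 4 were higher and 9 lower with HGF, where all genes gave 28.0% and 27.7%, and the family held falls as well as large rises (SLC35E1 and SLC35G2). Against HGF, 9 were higher and 2 lower with PD, and 12 were higher and 3 lower with UO, where all genes gave 29.9% and 25.8% with PD and 26.2% and 26.3% with UO. Over the class of 24 genes, 9 were higher and 2 lower than Control with PD, and 10 and 0 with UO, beside 21.8% and 13.5% of all genes with PD and 13.8% and 10.3% with UO. SLC35A1, the CMP-sialic acid transporter of the Golgi apparatus, read 14.51, 14.45, 14.58 and 14.54 on the HGF + PD arrays, 14.39, 14.37 and 14.48 on the HGF + UO arrays, 13.26, 13.19, 13.23 and 13.33 on the HGF arrays and 14.12, 14.22, 14.20 and 14.28 on the Control arrays. HGF lay lowest, Control next and both inhibitor groups highest, with overlap between the inhibitor groups only. SLC35A1 fell by 0.95 ± 0.04 with HGF, or 1.93-fold (adjusted p = 1.26e-10), and was above Control by 0.32 ± 0.04 with PD (adjusted p = 4.84e-05) and 0.21 ± 0.05 with UO (adjusted p = 0.00352).

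SLC35G1 averaged 8.61 ± 0.12 in HGF + PD, 8.70 ± 0.10 in HGF + UO, 7.24 ± 0.18 in HGF and 8.37 ± 0.10 in Control and fell by 1.14 ± 0.09 with HGF (adjusted p = 7.67e-08). SLC35E1 averaged 5.60 ± 0.17 in HGF + PD, 5.55 ± 0.12 in HGF + UO, 7.22 ± 0.27 in HGF and 5.16 ± 0.53 in Control and rose by 2.06 ± 0.21 (adjusted p = 9.85e-07), with each HGF array above every other array. SLC35G2 rose by 1.40 ± 0.23 with HGF (adjusted p = 0.000120) and was the single gene of the 14 raised by at least 1 that stayed nearer HGF than Control with both inhibitors. Its differences from HGF were -0.31 ± 0.23 with PD (adjusted p = 0.279, 95% interval -0.81 to 0.19) and -0.28 ± 0.25 with UO (adjusted p = 0.380, 95% interval -0.82 to 0.26). SLC35B3, which brings the sulphate donor PAPS into the Golgi apparatus, differed by 0.01 ± 0.09 with HGF (adjusted p = 0.956) and was above Control by 0.41 ± 0.09 with PD (adjusted p = 0.00245) and 0.39 ± 0.10 with UO (adjusted p = 0.00874). SLC35A3, an importer of UDP-N-acetylglucosamine picked here after its values were seen, rose by 0.77 ± 0.05 with HGF. SLC29A1, the nucleoside transporter ENT1, differed by -0.25 ± 0.10 (adjusted p = 0.0524), and passed without Control replicate 4 (-0.29, adjusted p = 0.0351), HGF replicate 2 (-0.28, adjusted p = 0.0465) or HGF replicate 4 (-0.29, adjusted p = 0.0406).

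Among the 33 measured mitochondrial carriers, SLC25A21, which exchanges oxodicarboxylates such as 2-oxoadipate, moved most. It read 8.19, 8.86, 8.56 and 8.41 on the HGF + PD arrays, 8.42, 8.40 and 8.60 on the HGF + UO arrays, 5.33, 6.02, 6.03 and 6.03 on the HGF arrays and 7.95, 7.51, 7.90 and 7.44 on the Control arrays. HGF lay under all other groups and both inhibitor groups lay above Control. SLC25A21 fell by 1.85 ± 0.18 with HGF, or 3.59-fold (adjusted p = 5.33e-07), and exceeded Control by 0.80 ± 0.18 with PD (adjusted p = 0.00294) and 0.77 ± 0.19 with UO (adjusted p = 0.00980). A second probe set gave -1.76 for HGF against Control. SLC25A23, an ATP-magnesium/phosphate carrier, fell by 1.10 ± 0.19 with HGF (adjusted p = 0.000143) and was 1.29 ± 0.19 higher with PD and 1.32 ± 0.20 higher with UO.

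SLC25A33, a carrier of pyrimidine nucleotides, did not return towards Control. It averaged 9.95 ± 0.15 in HGF + PD, 9.45 ± 0.06 in HGF + UO, 9.98 ± 0.08 in HGF and 10.77 ± 0.09 in Control, a change of -0.79 ± 0.07 with HGF (adjusted p = 3.77e-07). With PD it differed from HGF by -0.02 ± 0.07 (adjusted p = 0.805, 95% interval -0.18 to 0.14), and with UO it was lower than HGF by 0.53 ± 0.08 (adjusted p = 5.25e-05). SLC25A4, an adenine nucleotide translocase, rose by 0.37 ± 0.08 with HGF and was 0.38 ± 0.08 above Control with PD and 0.47 ± 0.09 with UO. A second SLC25A4 probe set gave 0.24 with UO against Control (adjusted p = 0.0784). Its near-identical paralogues SLC25A5 and SLC25A6 gave 0.88 ± 0.04 and -0.20 ± 0.05, and whether their probe sets also bind each other's transcripts was not tested, so each value is uncertain. SLC25A3, the phosphate carrier and the brightest of the class, changed by -0.12 ± 0.04 (adjusted p = 0.0293), a call that was lost under 10 other settings, 6 of them the omission of a single array (Control replicates 2, 3 and 4 and HGF replicates 2, 3 and 4, with -0.12 to -0.09 and adjusted p from 0.0505 to 0.0957). Against HGF 7 of the 33 were higher and 8 lower with PD, and 6 and 8 with UO. Of all genes 29.9% were higher and 25.8% lower with PD, and 26.2% and 26.3% with UO.

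Of the 7 lipid-related carriers 0 were higher and 3 lower with HGF, beside 28.0% and 27.7% of all genes. SLC27A4, a fatty acid transport protein, fell by 0.68 ± 0.15 with HGF (adjusted p = 0.00157) and was higher than HGF by 1.05 ± 0.15 with PD and 1.04 ± 0.17 with UO. SLC44A4, a choline transporter-like protein, averaged 11.99 ± 0.11 in HGF + PD, 11.99 ± 0.17 in HGF + UO, 11.90 ± 0.11 in HGF and 12.51 ± 0.06 in Control. Control was highest, and the fall of 0.61 ± 0.08 with HGF (adjusted p = 7.46e-06) was followed by differences of 0.09 ± 0.08 with PD (adjusted p = 0.334, 95% interval -0.07 to 0.26) and 0.09 ± 0.08 with UO (adjusted p = 0.413, 95% interval -0.09 to 0.26) against HGF.

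SLC49A4, a lysosomal membrane protein, averaged 12.01 ± 0.16 in HGF + PD, 12.20 ± 0.04 in HGF + UO, 10.78 ± 0.06 in HGF and 12.24 ± 0.11 in Control and fell by 1.46 ± 0.07 with HGF (adjusted p = 4.52e-10). The rule also took in 3 genes that carry an SLC symbol but are no transporters, namely SLC9A3R1, SLC9A3R2 and SLC2A4RG. SLC9A3R1 is the PDZ scaffold NHERF1, which anchors apical transporters. It fell by 0.82 ± 0.10 with HGF and was 0.60 ± 0.10 higher with PD and 1.02 ± 0.11 higher with UO. Without these 3 genes, 49 of 184 were higher and 51 lower with HGF.

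Relative to Control, the 29 genes that HGF changed by at least 1 mostly lay on the Control side of the midpoint when an inhibitor was present. The comparisons share the HGF arrays, so a high or low HGF mean by itself moves both differences, and the positions are a description of group means. Of the 14 raised genes 10 lay nearer Control than HGF with PD, 3 lay beyond Control (SLC5A3, SLC20A1 and SLC45A4) and 1 nearer HGF (SLC35G2). With UO 8 lay nearer Control, 5 beyond it (SLC5A3, SLC7A5, SLC20A1, SLC38A5 and SLC45A4) and 1 nearer HGF (SLC35G2). Of these, SLC5A3 with PD and SLC20A1 with UO passed the threshold under Control. Of the 15 lowered genes 10 lay nearer Control with PD, 4 beyond it (SLC17A5, SLC25A21, SLC25A23 and SLC35G1) and 1 further from Control than HGF (SLC12A2). With UO 7 lay nearer Control, 6 beyond it (SLC17A5, SLC23A1, SLC25A21, SLC25A23, SLC35G1 and SLC43A2), 1 nearer HGF (SLC2A9) and 1 further from Control than HGF (SLC12A2). The genes beyond Control that passed the threshold against it were SLC17A5 and SLC25A21 with PD, and these 2 and SLC35G1 with UO. That SLC35G1 call was lost without Control replicate 3 (0.33, adjusted p = 0.0508), Control replicate 4 (0.27, adjusted p = 0.0818), HGF + UO replicate 1 (0.32, adjusted p = 0.0828) or HGF + UO replicate 3 (0.28, adjusted p = 0.118).

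**Figure D4:**
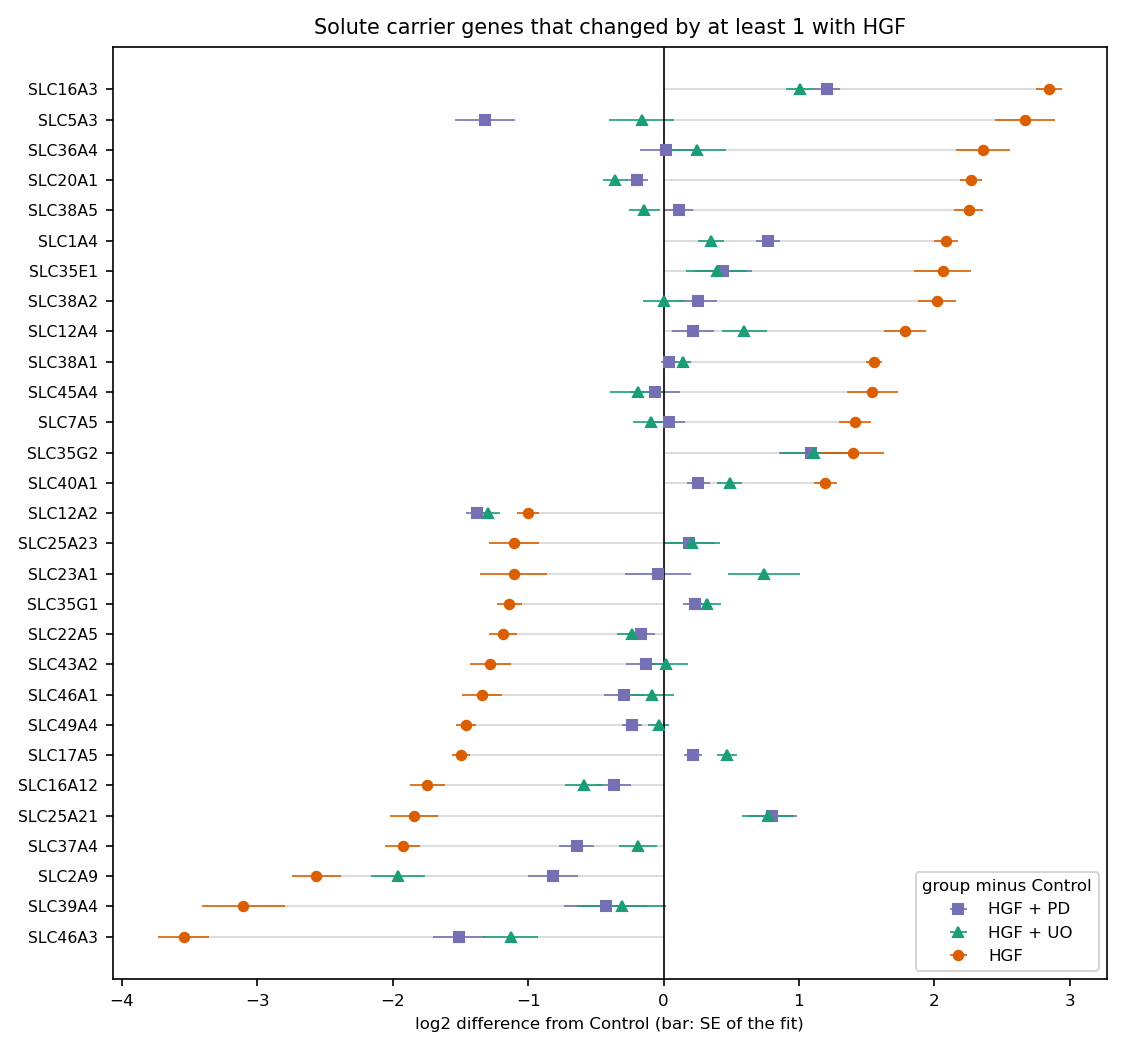
Log2 difference from Control of the 29 solute carrier genes that HGF changed by at least 1, for HGF + PD (squares), HGF + UO (triangles) and HGF (circles), with the SE of the fit as bars and Control at 0. Most inhibitor points lie near 0, while SLC35G2 stays beside its HGF value, SLC12A2 lies beyond its HGF value, and SLC16A3 with PD remains 1.21 above Control.

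Of the genes listed for tubule transport that are no solute carriers by this rule, 27 of 46 were measured. With HGF 8 were higher and 10 lower than Control, with PD 9 were higher and 8 lower than HGF, and with UO 9 and 9. The shares of all genes were 28.0% and 27.7% with HGF, 29.9% and 25.8% with PD and 26.2% and 26.3% with UO. The median for HGF against Control was -0.01, the same as for the solute carriers. Sodium pump subunits fell, with -0.75 ± 0.08 for the beta subunit ATP1B1 (adjusted p = 2.10e-06) and -1.21 ± 0.11 for the regulatory subunit FXYD2 (adjusted p = 2.70e-07), while the related FXYD5 rose by 2.26 ± 0.09 (adjusted p = 5.62e-11). The apical conjugate export pump ABCC2 fell by 2.56 ± 0.15 (adjusted p = 2.21e-09) and the drug efflux pump ABCB1 rose by 0.93 ± 0.10 (adjusted p = 2.75e-06). The kinase SGK1, which regulates sodium transport, fell by 1.23 ± 0.11, and the organic anion carrier SLCO4A1 rose by 1.73 ± 0.12. These examples were picked from the list after their values were seen.

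Several transporters that define nephron segments did not reach the filter. Among them were SLC12A1, the loop diuretic target of the thick ascending limb, SLC9A3, the proximal sodium-proton exchanger, SLC4A4, the proximal bicarbonate carrier, and SLC5A1, an apical glucose transporter. SLC34A2, SLC26A4, SLC6A12, SLC3A1 and its partner SLC7A9, SLC7A11, SLC47A1 and SLC27A2 were under the filter too. A value under the filter gives no statement on whether the gene is expressed, since a probe set may bind poorly. The share of annotated genes that were measured ran from 17 of 45 for sodium, chloride and acid-base carriers and 26 of 65 for amino acid carriers to 33 of 41 for mitochondrial carriers and 24 of 29 for nucleoside and nucleotide sugar carriers. Among the solute carriers, brighter genes were called more often for HGF against Control. At a mean log2 level of 8 or more 30 were higher and 34 lower of 84 genes, and under it 19 and 18 of 103. All genes of any level gave 28.0% higher and 27.7% lower. They were not split by level, so the contrast is not read as a trait of solute carriers.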

How the data were processed

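Total RNA of 15 MDCK cultures was hybridised to Affymetrix canine arrays. The deposited values are linear probe set intensities that the authors summarised with GCRMA, per the submitters' processing notes, whose version and chip definition are not given in the sources used here. In GCRMA output, dim probe sets are drawn towards a floor. The table held 43035 probe sets. Log2 was taken, 111 control probe sets were left out, and 24904 with a log2 of at least 4 on 3 or more arrays were kept, 307 of them of solute carriers. Symbols came from the platform annotation, and a probe set with more than 1 symbol was left unnamed.

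All 24904 were fitted together in limma 3.58.1 (R 4.3.3; lmFit, eBayes with a variance trend, 1 mean for each of 4 groups), with Benjamini-Hochberg adjustment over all of them and a threshold of 0.05. Every adjusted p comes from this fit or its alternatives. Differences are given ± SE of the fit, levels ± SD (n = 4, and 3 for HGF + UO), and array measures were compared by exact permutation tests. The fit was checked on simulated data with known changes. Genes overlap or are separate by their values on single arrays. The number of arrays limits the precision.

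The members, classes, gene lists and naming rule were chosen with earlier results of these data known. Named were the 10 largest separate changes each way in each of the first 3 comparisons, the brightest member and the 2 largest HGF changes of each class, the 5 largest each way past the threshold against Control with both inhibitors, and 41 kidney transporters set by name. Alternatives covered the filter, normalization, variance model, floor, probe set choice, arrays fitted, replicate block and single arrays left out.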

Additional observations from a re-analysis of the deposited data

Results flagged for a closer look

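In groups of 4 arrays, a value was picked out when its gap to the nearest other array as a share of the range of the group exceeded Dixon's critical value. For the named solute carriers, 15 of 177 groups were picked out, and chance gives about 1 in 20 groups. By array, 4 of the 15 were HGF replicate 4, 3 were HGF + PD replicate 1, 2 each were HGF replicate 1, Control replicate 1 and Control replicate 3, and 1 each were Control replicates 2 and 4.

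On HGF replicate 4, SLC1A4 read a log2 intensity of 9.96 against 9.91 to 9.92 on the other HGF arrays, SLC25A23 read 6.01 against 5.93 to 5.94, SLC20A2 read 6.495 against 6.78 to 6.82, and SLC12A7 read 8.55 against 8.65. On HGF replicate 1, SLC25A21 read 5.33 against 6.02 to 6.03, and SLC5A6 read 12.96 against 13.08 to 13.10. The SLC25A21 array lies furthest from Control, so the other 3 HGF arrays give a smaller fall.

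On HGF + PD replicate 1, SLC36A4 read 5.14 against 4.78 to 4.81 on the other HGF + PD arrays, SLC39A11 read 10.19 against 10.38 to 10.42, and SLC25A4 read 12.45 against 12.20 to 12.21. Among the Control arrays, replicate 3 read 3.69 for SLC38A5 against 4.00 to 4.07, and 4.19 for SLC22A8 against 4.11. Replicate 1 read 14.92 for SLC25A3 against 15.01, and 12.63 for SLC12A2 against 12.71 to 12.72. Replicate 2 read 7.16 for SLC34A1 against 6.92 to 6.93. Replicate 4 read 8.23 for SLC35G1 against 8.41 to 8.43.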

How the results depend on the processing

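The counts of solute carriers past the threshold stayed within 1.5 times their reported value under all alternatives but the second probe set of a gene, which exists for 91 of the 187 genes, so fewer genes were tested. With it, 24 were higher and 30 lower for HGF against Control, 27 and 24 for HGF + PD against HGF, 24 and 23 for HGF + UO against HGF, 12 and 7 for HGF + PD against Control, and 11 and 6 for HGF + UO against Control. With 1 array left out, the counts ran from 45 to 50 higher and 46 to 52 lower for HGF against Control, 50 to 53 and 42 to 48 for HGF + PD against HGF, 47 to 49 and 38 to 43 for HGF + UO against HGF, 28 to 37 and 16 to 22 for HGF + PD against Control, and 16 to 29 and 9 to 13 for HGF + UO against Control. Over 70 genes, 6466 of 6660 recomputed differences kept direction and side of the threshold, 118 lost the threshold and 69 gained it. The 7 that changed sign came from other probe sets, and the cause was not tested. They were SLC30A7 for HGF against Control (0.90, and 0.29 as the mean of probe sets), for HGF + UO against HGF (-0.73 and -0.27) and for HGF + PD against Control (0.18), SLC40A1 for HGF + PD against Control (-0.046), and SLC12A4 for HGF + UO against Control (-0.00060). Replicate numbers are shared by the groups, and with them as a replicate block 50 were higher and 52 lower for HGF against Control, 53 and 44 for HGF + PD against HGF, 50 and 40 for HGF + UO against HGF, 40 and 21 for HGF + PD against Control, and 22 and 10 for HGF + UO against Control. Arrays of the same number had deviations that correlated from -0.25 to 0.41 over 21 pairs, and 5 of 15 arrays correlated best with their own number, so the numbers were not taken as pairs. Leaving out the 3 genes that are no transporters, or the 7 with a group mean under the filter, was chosen after seeing the data and gave 49 and 51, and 48 and 50, for HGF against Control. Dim probe sets near the GCRMA floor limit the sizes given for SLC4A11, SLC5A3, SLC23A1, SLC36A4, SLC38A5 and SLC46A3.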
